A study of Mus musculus with 20 samples.

Results

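The mitosis and chromosome segregation genes are 59 genes, chosen by symbol from a list of cyclins and kinases of mitotic entry, chromosome and kinetochore proteins, checkpoint proteins, spindle motors, cytokinesis proteins and subunits of the augmin complex. All 59 were found by symbol among the 17294 gene names of the acute table and the 16195 of the prolonged table. RNA-seq of poly(A) RNA was done on jejunal intestinal epithelial cells of female mice. The double-knockout (DKO) mice were labelled Kdm6a/Kdm6b knockout and the control mice Control/WT, and Kdm6a and Kdm6b encode enzymes that remove a repressive methyl mark from histone H3. There were 7 DKO and 5 control libraries at 7 days after ablation (acute), and 5 DKO and 3 control libraries at 5 months after it (prolonged). The driver of the ablation and the age of the mice are not given in the sources used here, and the series describes the cells as crypt epithelium. The labels call the libraries biological replicates, and each p-value below sets a group difference against the spread between these libraries.

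The intestinal epithelium renews itself from the crypts, where stem cells and their transit-amplifying daughters divide, and differentiated cells on the villus do not. A dividing cell builds up mitotic cyclins and kinases, condenses its chromosomes with condensin and topoisomerase II, and attaches them by kinetochores to the spindle. The spindle checkpoint holds back the anaphase-promoting complex until all chromosomes are attached, after which sister chromatids part and the cell divides in cytokinesis. Most of these transcripts are made late in the cell cycle, so tissues rich in cycling cells have high levels of them. Augmin, made of the Haus proteins, seeds new microtubules on the sides of existing ones within the spindle.

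Acute DKO libraries held 19100000 to 26600000 reads in genes and acute controls 15400000 to 26500000. The ranges were 12600000 to 20600000 in prolonged DKO libraries and 9910000 to 23200000 in prolonged controls. No member had fewer than 75 reads in any library. Levels are given in CPM, the reads of a gene as a share of the reads of its library. Each log2 fold change is the difference of the group means of log2(CPM + 1), DKO minus control, and is followed by its standard error (SE) in the limma-trend fit. A call means that the p-value, adjusted by Benjamini-Hochberg over the whole table, was under 0.05. Kdm6a fell by 0.62 ± 0.07 at the acute time (adjusted p = 0.000145) and Kdm6b by 0.53 ± 0.08 (adjusted p = 0.00132), and both were lower at the prolonged time too. On the first principal component of the acute libraries, DKO 3 and DKO 4 stood apart, at 34.0 and 45.9, while the other 10 libraries lay between -28.0 and 12.1. Epithelial markers such as Epcam and Krt8 summed to 9340 to 10900 CPM in acute DKO libraries and 9690 to 10000 CPM in acute controls, and to 9480 to 10300 CPM in prolonged DKO libraries and 9280 to 9580 CPM in prolonged controls.

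At the acute time, 48 of the 59 members were called lower in DKO and 0 higher, while 12.1% of the 13601 genes tested were called lower and 2.9% higher. The other 11 members missed the threshold, and their estimates were below 0 as well. The median log2 fold change of the members was -0.58 (range -0.84 to -0.25), while that of all genes tested was -0.07. In 24 members every DKO library lay below every control library, which was so for 6.55% of all genes tested. With composition scaling by TMM factors, the calls over all genes split into 660 higher and 1124 lower, where the unscaled values gave 394 higher and 1641 lower. Scaled in this way, 46 members were called, all lower, with a median of -0.50, while 8.26% of all genes were called lower. Relative log expression factors and edgeR also gave 46 members each, with 7.9% and 7.95% of all genes called lower. In bulk RNA, fewer dividing cells and less of these transcripts per dividing cell cannot be told apart.

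At the prolonged time, 38 of the 59 members were called lower and 0 higher, while 8.94% of the 13316 genes tested were called lower and 5.74% higher. The median of the members was -0.33 (range -0.56 to -0.06), and that of all genes tested was 0.00. Every DKO library lay below every control library in 36 members and in 11.7% of all genes tested. Composition scaling called 38 members (TMM factors) and 40 (relative log expression factors), with 8.7% and 8.71% of all genes called lower, and edgeR 39, with 8.75%. By edgeR and DESeq2, too, 0 members were called higher at either time, and 0 had a higher level with an unadjusted p under 0.05 by any of the 3 tools. This count of calls rested on few control libraries: without prolonged control 1 it was 19 (with 6.9% of all genes called lower), and without prolonged control 3 it was 15 (5.13%). Without prolonged control 2, which had the lowest member levels of the 3 controls, it was 48 (8.67%).

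Summed over the 59 members, the transcripts took 0.164% to 0.263% of the reads in acute DKO libraries (median 0.217%) and 0.272% to 0.369% in acute controls (median 0.336%). In prolonged DKO libraries they took 0.268% to 0.306% (median 0.293%), against 0.329% to 0.397% in prolonged controls (median 0.385%). The summed shares of DKO and control libraries did not overlap at either time. Acute DKO 1 was the lowest of the 7 acute DKO libraries in 46 members, and prolonged DKO 3 the lowest of the 5 prolonged DKO libraries in 32 members.

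The acute animals carry numbers in the labels that fall into runs, and acute DKO and control libraries are spread unevenly over them. Within the lowest run of numbers, with 2 DKO and 4 control libraries, all 59 members were lower in DKO, with a median difference of -0.35 (range -0.59 to -0.01). Within the middle run, with 3 DKO libraries and 1 control, all 59 were lower too, with a median of -0.74 (range -1.03 to -0.36). Acute DKO 3 and 4 form the highest run, with no control. With the runs as a block, 31 members were called lower (median -0.50), while 7.96% of all genes were, and the members that lost their acute call there are named with their role group. Without acute DKO 3 and 4, 46 members (median -0.55) and 9.64% of all genes were called lower. Acute control 2 was the lowest control in 5 of the 7 genes of chromosome structure and in both Cenpe and Cenpf.

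**Figure D1:**
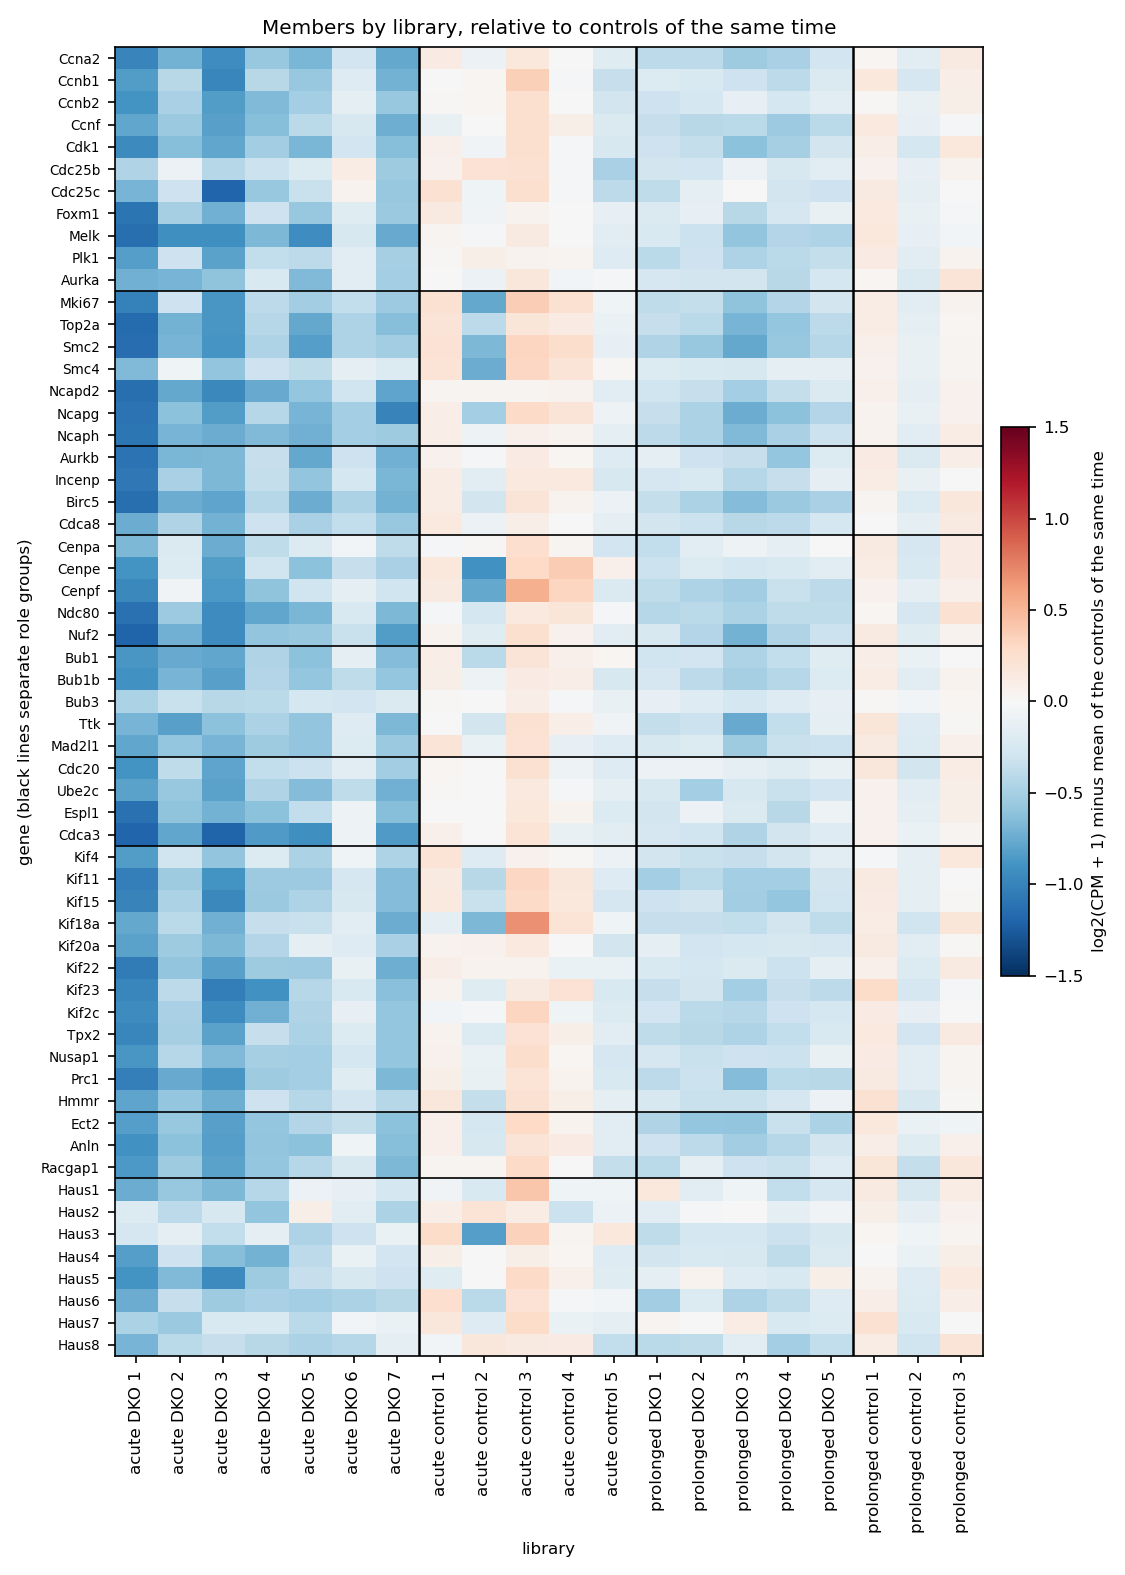
Each cell shows log2(CPM + 1) of a member (rows, grouped by role) in a library (columns), minus the mean of the controls of the same time, with blue for lower and red for higher. The 7 acute DKO columns are blue in nearly all rows, most deeply in acute DKO 1, the 5 prolonged DKO columns are paler, and acute control 2 is blue in a few chromosome and kinetochore rows.

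Sequence elements were counted in the promoters of the members, which were chosen by symbol and not by sequence. Most of these transcripts are made late in the cell cycle, so a high share of the elements below is not an independent result. Many promoters of late cell cycle genes hold the element TTTGAA, known as CHR, near the transcription start, where MuvB complexes bind, together with CCAAT boxes, which NF-Y binds. Promoter sequences from RefSeq (build GRCm38.p6, 250 bases before to 50 bases after the start) were at hand for 50 of the 59 members, as 54 promoters. TTTGAA, searched on both strands, was present in 35 of these 54 promoters (64.8%), in 17.9% of all 32851 mouse promoters of the table and in 12.3% of the promoters of genes tested at the acute time. Within 50 bases of the start, the shares were 57.4% of member promoters and 4.94% of all promoters. CCAAT on either strand was present in 72.2% of member promoters and 37.4% of all promoters. All 35 promoters with TTTGAA belonged to members outside augmin, where they made up 76.1% of 46 promoters, and 0 of the 8 promoters of Haus genes held it. The promoters of 4 members and of a Haus gene without the element are shown because they hold the contrast, with TTTGAA and CCAAT, or their reverse complements TTCAAA and ATTGG, in capitals. The Cdk1 promoter (chr10:69352863-69353162, minus strand) has TTTGAA 71 and 15 bases before the start, and the Ccnb2 promoter (chr9:70421505-70421804, minus strand) has it 167 bases before and 5 bases after the start. The Plk1 promoter (chr7:122159185-122159484, plus strand) has it 31 bases after the start and the Ube2c promoter (chr2:164769679-164769978, plus strand) has it on the opposite strand 29 bases before the start. The Haus7 promoter (chrX:73458980-73459279, minus strand) has CCAAT 93 bases before the start and no TTTGAA. In the Ube2c promoter a CCAAT and a reverse CCAAT overlap.
Cdk1: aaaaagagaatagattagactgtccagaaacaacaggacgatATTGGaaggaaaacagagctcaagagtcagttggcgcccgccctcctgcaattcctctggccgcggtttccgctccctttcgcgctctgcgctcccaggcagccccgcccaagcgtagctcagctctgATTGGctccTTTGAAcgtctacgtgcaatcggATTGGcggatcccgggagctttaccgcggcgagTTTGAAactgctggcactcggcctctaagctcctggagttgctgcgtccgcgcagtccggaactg
Ccnb2: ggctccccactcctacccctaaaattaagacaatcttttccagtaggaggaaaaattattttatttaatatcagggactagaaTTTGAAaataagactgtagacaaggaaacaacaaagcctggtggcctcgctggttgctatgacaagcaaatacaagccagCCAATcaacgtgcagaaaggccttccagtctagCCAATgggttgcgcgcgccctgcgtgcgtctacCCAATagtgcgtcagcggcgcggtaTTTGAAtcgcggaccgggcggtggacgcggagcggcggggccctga
Plk1: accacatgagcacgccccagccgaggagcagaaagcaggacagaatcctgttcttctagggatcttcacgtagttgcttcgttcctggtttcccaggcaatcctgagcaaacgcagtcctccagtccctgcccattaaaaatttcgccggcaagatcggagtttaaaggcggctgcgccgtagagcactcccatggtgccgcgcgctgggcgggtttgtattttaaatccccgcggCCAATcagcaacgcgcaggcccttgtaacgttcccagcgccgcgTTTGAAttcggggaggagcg
Ube2c: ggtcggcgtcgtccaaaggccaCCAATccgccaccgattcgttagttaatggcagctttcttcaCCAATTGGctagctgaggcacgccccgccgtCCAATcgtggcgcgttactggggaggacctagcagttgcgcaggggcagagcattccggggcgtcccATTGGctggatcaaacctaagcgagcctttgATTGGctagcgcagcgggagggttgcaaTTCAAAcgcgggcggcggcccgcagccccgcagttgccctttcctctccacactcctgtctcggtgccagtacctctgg
Haus7: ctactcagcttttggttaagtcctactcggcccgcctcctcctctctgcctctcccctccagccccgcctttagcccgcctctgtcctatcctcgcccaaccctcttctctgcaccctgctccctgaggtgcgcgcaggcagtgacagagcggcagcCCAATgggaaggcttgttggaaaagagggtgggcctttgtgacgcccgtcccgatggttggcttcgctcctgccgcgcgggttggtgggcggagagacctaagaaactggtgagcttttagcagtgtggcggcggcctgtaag
The 32 members with TTTGAA had a median log2 fold change of -0.60 at the acute time, with 30 called lower, and of -0.36 at the prolonged time, with 25 called lower. The 18 members with a promoter in the table and no TTTGAA had medians of -0.54 and -0.30 at these times. Of these 18, 12 and 9 were called lower, while 12.1% and 8.94% of all genes tested were. All 7 augmin genes with a promoter were among the 18, and augmin as a group had medians of -0.41 and -0.20. The 2 sets thus differ in role too, and a link between the element and the size of the change was not tested. A match of these letters is a description of the sequence and does not show that a factor binds there.

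Mitotic entry is driven by cyclin-dependent kinase 1 with its cyclins and by the Polo-like and Aurora kinases. Of the 11 members of this group, 9 were called lower at the acute time (median -0.58) and 7 at the prolonged time (median -0.30). With the acute runs as a block 7 were called, without Ccnb1 (adjusted p = 0.0913) and Plk1 (adjusted p = 0.0749). The prolonged calls of Aurka, the kinase Aurora A, and of Ccnb2, another cyclin B, were lost without any of 7 and 6 single libraries (adjusted p up to 0.215 and 0.177 without prolonged control 3). Cdk1, the kinase that drives cells into mitosis, had 27.7, 34.5 and 44.4 CPM (lowest, median and highest) in the 7 acute DKO libraries, against 57.5, 52.4, 64.4, 53.6 and 46.0 CPM in acute controls 1 to 5. The groups did not overlap, and the log2 fold change was -0.65 ± 0.11 (adjusted p = 0.00157). At 5 months Cdk1 had 43.3, 42.1, 34.9, 37.9 and 44.3 CPM in DKO libraries 1 to 5, against 57.9, 45.0 and 60.5 CPM in controls 1 to 3. Control 2 was the lowest control and still lay above every DKO library, and the log2 fold change was -0.41 ± 0.10 (adjusted p = 0.0204). This call was lost without prolonged control 1 (adjusted p = 0.0722) or prolonged control 3 (adjusted p = 0.112).

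Ccnb1, the cyclin B that activates Cdk1, had 10.1, 13.8 and 18.2 CPM (lowest, median and highest) in acute DKO libraries, against 20.9, 21.4, 27.0, 20.5 and 16.2 CPM in acute controls 1 to 5. Acute control 5 fell within the DKO range, and the log2 fold change was -0.59 ± 0.14 (adjusted p = 0.0146). At 5 months Ccnb1 was not called, with 19.1, 18.8, 17.7, 16.7 and 18.9 CPM in DKO libraries 1 to 5 against 24.9, 18.4 and 23.8 CPM in controls 1 to 3 (log2 fold change -0.27 ± 0.10, adjusted p = 0.101). It was called there without prolonged control 2 (adjusted p = 0.0144), the control that overlapped the DKO libraries. Plk1, the Polo-like kinase that acts from entry to cytokinesis, had 40.3, 54.8 and 64.5 CPM (lowest, median and highest) in acute DKO libraries, against 72.8, 76.6, 75.0, 74.1 and 63.0 CPM in acute controls. The log2 fold change of Plk1 was -0.48 ± 0.11 at the acute time (adjusted p = 0.0105), with 6 of 7 DKO libraries below every control, and -0.39 ± 0.07 at the prolonged time (adjusted p = 0.00301), with all 5 below.

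Foxm1 encodes a transcription factor that activates late cell cycle genes. It averaged 25.3 ± 5.09 CPM in acute DKO libraries and 37.2 ± 2.61 CPM in acute controls (SD, n = 7 and 5), a log2 fold change of -0.56 ± 0.13 (adjusted p = 0.00986), and the groups did not overlap. At 5 months Foxm1 averaged 32.4 ± 2.80 CPM in DKO libraries and 38 ± 3.54 CPM in controls (n = 5 and 3), with all 5 DKO libraries below every control but no call (adjusted p = 0.108). Melk, which encodes a kinase abundant in dividing cells, had the largest acute change of the group, at 25.5 ± 5.70 CPM in DKO libraries and 44.3 ± 3.34 CPM in controls (log2 fold change -0.79 ± 0.12, adjusted p = 0.00107). The phosphatase genes Cdc25b and Cdc25c, whose products activate Cdk1, missed the threshold at both times. Cdc25b averaged 27.6 ± 4.68 CPM in acute DKO libraries and 33.8 ± 6.32 CPM in acute controls (adjusted p = 0.201), and was called without acute control 5 (adjusted p = 0.0386). Cdc25c averaged 5.94 ± 1.79 CPM in acute DKO libraries and 8.74 ± 1.69 CPM in acute controls (adjusted p = 0.0796), and was called without acute control 5 (adjusted p = 0.0476) or acute DKO 6 (adjusted p = 0.0309). Their prolonged log2 fold changes were -0.21 ± 0.07 for Cdc25b (adjusted p = 0.0764, and 0.0408 without prolonged control 2) and -0.22 ± 0.12 for Cdc25c (adjusted p = 0.243).

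**Figure D2:**
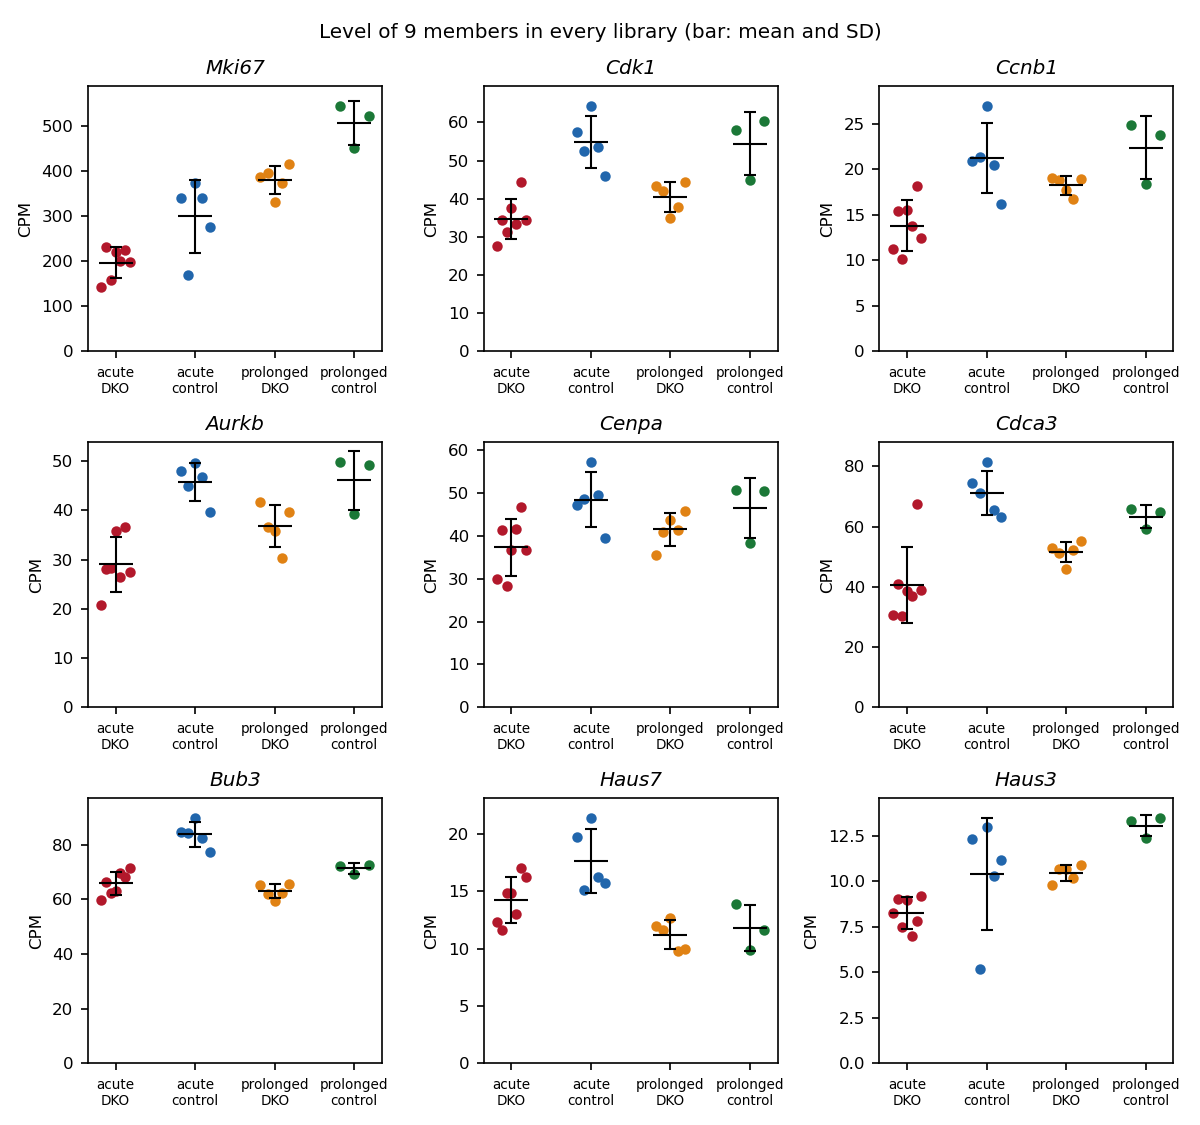
Each point is the CPM of 1 library in acute DKO (7), acute control (5), prolonged DKO (5) and prolonged control (3) libraries, and the black bars are the mean and SD, on axes that start at 0. Cdk1, Aurkb and Bub3 show no overlap at the acute time, and acute control 2 lies far below the other controls in Mki67 and Haus3. The prolonged groups overlap in Ccnb1, Aurkb, Cenpa and Haus7.

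Condensin folds mitotic chromosomes, topoisomerase II separates entangled strands, and Mki67 coats the chromosome surface and is a standard marker of cycling cells. Of the 7 members of this group, 6 were called lower at the acute time (median -0.71) and all 7 at the prolonged time (median -0.47). With the acute runs as a block 5 were called, without Mki67. The acute calls of Top2a, Smc2 and Ncapg held under each of the 21 alternatives run, among them the fit without acute control 2. Top2a, the topoisomerase, had 135, 185 and 224 CPM (lowest, median and highest) in acute DKO libraries, against 345, 229, 342, 330 and 282 CPM in acute controls 1 to 5. At 5 months Top2a had 302, 290, 237, 256 and 292 CPM in DKO libraries 1 to 5, against 417, 348 and 392 CPM in controls 1 to 3. The groups were apart at both times, with log2 fold changes of -0.72 ± 0.13 (adjusted p = 0.00264) and -0.49 ± 0.08 (adjusted p = 0.00294).

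The Mki67 levels overlapped at the acute time. Mki67 had 142, 200 and 232 CPM (lowest, median and highest) in acute DKO libraries, against 339, 169, 373, 339 and 276 CPM in acute controls 1 to 5. Acute control 2 was lower than all but 2 of the 7 DKO libraries, and the log2 fold change of -0.57 ± 0.18 lay just past the threshold (adjusted p = 0.0484). The Mki67 call was lost under both composition scalings, by edgeR, with no filter on low values (adjusted p = 0.0581), with the runs as a block (adjusted p = 0.138) and without any of 9 single libraries, with adjusted p up to 0.140 without acute control 3. It was kept without acute control 2, with an adjusted p of 0.00355 and a log2 fold change of -0.77. At 5 months Mki67 had 386, 394, 331, 372 and 414 CPM in DKO libraries 1 to 5, against 544, 450 and 520 CPM in controls 1 to 3, with no overlap (log2 fold change -0.41 ± 0.08, adjusted p = 0.00517).

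Ncapd2, a condensin I subunit, had the largest acute change of the group, with 49.4, 63.9 and 88.9 CPM (lowest, median and highest) in acute DKO libraries, against 112, 112, 112, 113 and 97.9 CPM in acute controls. The groups were apart, and the log2 fold change was -0.75 ± 0.11 (adjusted p = 0.00086). At 5 months the value for Ncapd2 was -0.34 ± 0.07 (adjusted p = 0.00796). Smc4, the condensin ATPase that pairs with Smc2, had the smallest acute change and was not called, at 101 ± 15.6 CPM in DKO libraries and 131 ± 32.7 CPM in controls (log2 fold change -0.34 ± 0.16, adjusted p = 0.193). Acute control 2 had 75.6 CPM of Smc4, below every DKO library, and without it the gene was called (adjusted p = 0.00929). At 5 months Smc4 was called, at 138 ± 4.41 CPM in DKO libraries and 158 ± 10.3 CPM in controls (log2 fold change -0.19 ± 0.05, adjusted p = 0.0318), and that call was lost in 5 of the 8 fits with a library left out. Its partner Smc2 changed by -0.71 ± 0.17 at the acute time (adjusted p = 0.0123) and by -0.56 ± 0.08 at the prolonged time (adjusted p = 0.000857), which was the largest prolonged change of the 59 members.

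The chromosomal passenger complex joins the kinase Aurora B, encoded by Aurkb, to Incenp, survivin (Birc5) and borealin (Cdca8), and corrects faulty attachments. All 4 genes were called lower at the acute time with no overlap between groups (median -0.62), and 3 of 4 at the prolonged time (median -0.33). Aurkb had 20.7, 28.1 and 36.7 CPM (lowest, median and highest) in acute DKO libraries, against 47.9, 45.0, 49.6, 46.7 and 39.7 CPM in acute controls (log2 fold change -0.66 ± 0.12, adjusted p = 0.00287). At 5 months Aurkb had 41.7, 36.7, 35.9, 30.4 and 39.7 CPM in DKO libraries, against 49.9, 39.2 and 49.3 CPM in controls, and was not called (-0.32 ± 0.11, adjusted p = 0.0695). Prolonged control 2 lay within the DKO range, and Aurkb was called without it (adjusted p = 0.0243). It was also called without prolonged DKO 1 (adjusted p = 0.0491) and by DESeq2 (adjusted p = 0.0361). Birc5 had the largest acute change of the 4, at 32.3 ± 5.12 CPM in DKO libraries and 53.6 ± 6.78 CPM in controls (log2 fold change -0.72 ± 0.11, adjusted p = 0.00126), and Cdca8 the smallest (-0.52 ± 0.09, adjusted p = 0.00162). Their prolonged changes were -0.50 ± 0.09 for Birc5 (adjusted p = 0.00327) and -0.33 ± 0.07 for Cdca8 (adjusted p = 0.0108). The Cdca8 call was lost without prolonged control 3 (adjusted p = 0.0694), and the prolonged call of Incenp without prolonged control 1 (adjusted p = 0.0967), control 3 (adjusted p = 0.0945) or DKO 4 (adjusted p = 0.062).

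Kinetochores are built on the centromeric histone Cenpa and bind microtubules through the Ndc80 complex, to which Nuf2 belongs. Of the 5 members of this group, 2 were called lower at the acute time (median -0.53) and 3 at the prolonged time (median -0.41). The prolonged calls of Nuf2 and Ndc80 were lost without prolonged control 1 (adjusted p = 0.0879 and 0.0644) or control 3 (adjusted p = 0.0987 and 0.135). Nuf2 had 9.85, 14.1 and 18.8 CPM (lowest, median and highest) in acute DKO libraries, against 24.8, 20.9, 28.4, 25.0 and 21.3 CPM in acute controls, with no overlap (log2 fold change -0.74 ± 0.13, adjusted p = 0.00274). Cenpa had 28.2, 36.8 and 46.7 CPM in acute DKO libraries, against 47.3, 48.7, 57.3, 49.5 and 39.4 CPM in acute controls, and was just outside the threshold (-0.38 ± 0.12, adjusted p = 0.0545). It was called without acute control 5 (adjusted p = 0.0309), acute DKO 5 (adjusted p = 0.0497) or acute DKO 6 (adjusted p = 0.0263). At 5 months Cenpa had 35.6, 40.8, 43.8, 41.4 and 45.9 CPM in DKO libraries, against 50.6, 38.4 and 50.4 CPM in controls (adjusted p = 0.365), so the groups overlapped.

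Cenpe, a kinesin that carries chromosomes to the spindle equator, and Cenpf, a large kinetochore protein, were spread widely over the acute controls. Cenpe had 25.4, 34.1 and 41.6 CPM (lowest, median and highest) in acute DKO libraries, against 53.9, 25.1, 59.4, 63.1 and 50.8 CPM in acute controls 1 to 5 (adjusted p = 0.0948). Cenpf had 24.1, 38.6 and 46.3 CPM in acute DKO libraries, against 52.6, 27.8, 69.5, 59.9 and 41.1 CPM in acute controls 1 to 5 (adjusted p = 0.174). Control 2 was the lowest control for both genes, and without it both were called (adjusted p = 0.00344 for Cenpe and 0.0383 for Cenpf). At 5 months Cenpf was called with no overlap, at 57.8 ± 3.01 CPM in DKO libraries and 77.7 ± 6.35 CPM in controls (log2 fold change -0.42 ± 0.07, adjusted p = 0.00168). Cenpe averaged 58.7 ± 2.46 CPM in DKO libraries and 69.8 ± 9.42 CPM in controls there (adjusted p = 0.0682) and was called without prolonged control 2 (adjusted p = 0.00429), with relative log expression factors (adjusted p = 0.0495) and by DESeq2 (adjusted p = 0.0358).

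All 5 spindle checkpoint genes were called lower at the acute time (median -0.58) and 4 at the prolonged time (median -0.33). Bub1, a checkpoint kinase, had 13.1, 15.5 and 22.7 CPM (lowest, median and highest) in acute DKO libraries, against 26.8, 18.6, 28.7, 26.4 and 25.4 CPM in acute controls 1 to 5. Control 2 fell within the DKO range, and the log2 fold change was -0.61 ± 0.13 (adjusted p = 0.00828). At 5 months the change of Bub1 was -0.32 ± 0.08 (adjusted p = 0.023), a call that missed the threshold without prolonged control 1 (adjusted p = 0.081), prolonged control 3 (adjusted p = 0.0822) or prolonged DKO 4 (adjusted p = 0.0518). Bub1b, which encodes the checkpoint protein BubR1, had the largest acute change, with 39.9 ± 5.35 CPM in DKO libraries and 62.0 ± 6.37 CPM in controls (-0.63 ± 0.10, adjusted p = 0.00102). Its prolonged call was lost without prolonged control 1 (adjusted p = 0.0547) or control 3 (adjusted p = 0.0715), and that of Mad2l1, the checkpoint protein Mad2, without any of 5 single libraries (adjusted p up to 0.159 without prolonged control 3).

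Bub3, the partner of both Bub1 and BubR1, changed least in the checkpoint group but had little spread. It had 59.9, 66.4 and 71.6 CPM (lowest, median and highest) in acute DKO libraries, against 84.7, 84.3, 89.9, 82.6 and 77.2 CPM in acute controls, with no overlap (log2 fold change -0.34 ± 0.06, adjusted p = 0.00164). At 5 months it averaged 63.0 ± 2.63 CPM in DKO libraries and 71.4 ± 2.0 CPM in controls, and its call (-0.18 ± 0.05, adjusted p = 0.0447) was lost under both composition scalings, by edgeR, by DESeq2 and without any single library of the 8. Ttk, the kinase that starts checkpoint signalling, was called at the acute time (-0.58 ± 0.12, adjusted p = 0.00483) and missed the threshold at the prolonged time by limma-trend (-0.39 ± 0.13, adjusted p = 0.0739) but not by DESeq2 (adjusted p = 0.0457).

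All 4 genes of anaphase onset and mitotic proteolysis were called lower at the acute time (median -0.61) and 2 at the prolonged time (median -0.25). With the acute runs as a block 2 were called, without Cdc20 (adjusted p = 0.101) and Espl1 (adjusted p = 0.0787). Ube2c, the ubiquitin-conjugating enzyme of the anaphase-promoting complex, had the smallest adjusted p of the 59 members at the acute time. It had 44.4, 49.7 and 60.0 CPM (lowest, median and highest) in acute DKO libraries, against 79.3, 78.2, 87.0, 76.7 and 71.4 CPM in acute controls (log2 fold change -0.63 ± 0.08, adjusted p = 0.000342). At 5 months Ube2c had 71.5, 59.5, 71.4, 67.1 and 69.6 CPM in DKO libraries, against 89.1, 76.1 and 90.1 CPM in controls (-0.32 ± 0.08, adjusted p = 0.0147). The groups were apart at both times, and the prolonged call was lost without prolonged control 1 (adjusted p = 0.0518) or prolonged control 3 (adjusted p = 0.0822).

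Cdc20, which activates the anaphase-promoting complex and is the checkpoint's target, had 38.1, 55.2 and 64.5 CPM (lowest, median and highest) in acute DKO libraries, against 73.5, 72.5, 84.3, 68.4 and 62.6 CPM in acute controls. The log2 fold change was -0.49 ± 0.12 (adjusted p = 0.0154), and the call was lost without acute control 3 (adjusted p = 0.0527). At 5 months Cdc20 had 66.7, 66.9, 64.6, 62.8 and 65.5 CPM in DKO libraries, against 79.9, 58.4 and 76.9 CPM in controls (-0.12 ± 0.09, adjusted p = 0.417). Prolonged control 2 was lower than every DKO library, and without it Cdc20 was called (adjusted p = 0.0128). Cdca3, whose product promotes mitotic entry through protein degradation, had the largest acute change of the 59 members. It had 30.2, 38.8 and 67.4 CPM in acute DKO libraries, against 74.5, 71.2, 81.6, 65.4 and 63.2 CPM in acute controls (-0.84 ± 0.16, adjusted p = 0.00356), and DKO 6, the highest, was the DKO library that overlapped the controls. The prolonged call of Cdca3 was lost without prolonged control 3 (adjusted p = 0.0662). Espl1, which encodes separase, the protease that cuts cohesin, was called at the acute time (-0.59 ± 0.14, adjusted p = 0.0127) and not at the prolonged time (-0.21 ± 0.09, adjusted p = 0.144).

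Spindle motors and microtubule proteins form the largest group, with 12 members, of which 11 were called lower at the acute time (median -0.58) and 8 at the prolonged time (median -0.34). With the acute runs as a block 3 were called, Kif22, Prc1 and Nusap1 (median of the 12 members -0.48), and the other 8 called genes lost their call. Their adjusted p was then 0.0503 for Kif23, 0.0516 for Tpx2, 0.0539 for Hmmr, 0.0574 for Kif11, 0.0786 for Kif15, 0.0825 for Kif2c, 0.0973 for Kif4 and 0.0991 for Kif20a. Kif23, the centralspindlin kinesin, had the largest acute change of the group, at 42.0 ± 9.52 CPM in DKO libraries and 65.8 ± 8.84 CPM in controls (log2 fold change -0.66 ± 0.14, adjusted p = 0.00842). At 5 months Kif23 averaged 57.7 ± 3.44 CPM in DKO libraries and 75.7 ± 14.1 CPM in controls (-0.37 ± 0.10, adjusted p = 0.0251), a call lost without prolonged control 1 (adjusted p = 0.0814), prolonged control 3 (adjusted p = 0.081) or prolonged DKO 5 (adjusted p = 0.0552). Kif4, a chromokinesin, changed least at the acute time, at 29.0 ± 5.22 CPM in DKO libraries and 38.7 ± 4.14 CPM in controls (-0.42 ± 0.12, adjusted p = 0.0303), and its call was lost under both composition scalings, by edgeR, by DESeq2 and without any of 4 single libraries (adjusted p up to 0.086 without acute control 1). The prolonged call of Kif4 was lost without any of 6 single libraries (adjusted p up to 0.16 without prolonged control 3). Kif18a, a kinesin that limits chromosome movements, was called at neither time. It had 4.59, 6.20 and 7.47 CPM (lowest, median and highest) in acute DKO libraries, against 7.61, 4.97, 14.3, 9.96 and 8.07 CPM in acute controls 1 to 5 (adjusted p = 0.109). It was called without acute control 2 (adjusted p = 0.026), and at the prolonged time (adjusted p = 0.0695) it was called without prolonged control 2 (adjusted p = 0.0104).

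Kif20a, Kif22 and Hmmr were called lower at the acute time and missed the threshold at the prolonged time by limma-trend. Kif20a, a kinesin of the central spindle, changed by -0.47 ± 0.12 at the acute time (adjusted p = 0.0146), and its prolonged log2 fold change was -0.24 ± 0.08 (adjusted p = 0.0533). Kif22, a chromokinesin, changed by -0.63 ± 0.12 at the acute time (adjusted p = 0.00492), and its prolonged log2 fold change was -0.24 ± 0.08 (adjusted p = 0.0785). Hmmr, a spindle assembly protein, changed by -0.51 ± 0.12 at the acute time (adjusted p = 0.0117), and its prolonged log2 fold change was -0.25 ± 0.10 (adjusted p = 0.124). All 3 were called at the prolonged time without prolonged control 2 (adjusted p = 0.0171 for Kif20a, 0.0118 for Kif22 and 0.0215 for Hmmr). Kif20a was also called there under both composition scalings (adjusted p = 0.0385 and 0.0352), by edgeR (adjusted p = 0.0301) and by DESeq2 (adjusted p = 0.0334). The remaining 6 genes of the group, which include the bipolar spindle kinesin Kif11, the spindle assembly factor Tpx2 and the midzone bundler Prc1, were called lower at both times. Of their prolonged calls, that of Tpx2 was lost without prolonged control 1 (adjusted p = 0.0887) or control 3 (adjusted p = 0.123), that of Kif2c without the same libraries (adjusted p = 0.0562 and 0.0627), that of Kif15 without control 3 (adjusted p = 0.0525) and that of Nusap1 without any of 6 single libraries (adjusted p up to 0.139 without control 3).

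All 3 cytokinesis genes were called lower at the acute time (median -0.60) and 2 at the prolonged time (median -0.39). With the acute runs as a block Anln lost its call (adjusted p = 0.0515). Anln, which encodes the contractile ring protein anillin, had the largest acute change of the 3, at 25.3 ± 5.46 CPM in DKO libraries and 38.7 ± 5.03 CPM in controls (log2 fold change -0.61 ± 0.13, adjusted p = 0.00701), and -0.39 ± 0.08 at the prolonged time (adjusted p = 0.0085, and 0.0505 without prolonged control 3). Racgap1, the centralspindlin partner of Kif23, had 36.9, 44.9 and 57.0 CPM (lowest, median and highest) in acute DKO libraries, against 69.5, 69.4, 82.9, 67.2 and 52.8 CPM in acute controls (-0.59 ± 0.12, adjusted p = 0.00473). At 5 months Racgap1 had 54.2, 65.2, 58.0, 57.0 and 62.9 CPM in DKO libraries, against 82.2, 56.3 and 81.7 CPM in controls 1 to 3 (-0.28 ± 0.11, adjusted p = 0.123). Prolonged control 2 lay below all but 1 of the DKO libraries, and without it Racgap1 was called (adjusted p = 0.00357). The third gene of the group, Ect2, which activates the contractile ring GTPase RhoA, was called at both times with no overlap.

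Augmin had 4 of its 8 members called lower at the acute time (median -0.41) and 2 at the prolonged time (median -0.20). With the acute runs as a block 1 was called, Haus6, and Haus4 (adjusted p = 0.115), Haus5 (adjusted p = 0.127) and Haus8 (adjusted p = 0.0759) were not. The 51 other members had 44 called lower at the acute time (median -0.59) and 36 at the prolonged time (median -0.34). Haus5 had the largest acute change of the group, with 6.47, 9.0 and 11.3 CPM (lowest, median and highest) in DKO libraries, against 11.8, 13.4, 16.7, 14.3 and 11.8 CPM in controls, with no overlap (log2 fold change -0.56 ± 0.14, adjusted p = 0.0182). That call was lost without acute control 3 (adjusted p = 0.061) or acute control 4 (adjusted p = 0.0501), and at the prolonged time Haus5 averaged 10.3 ± 1.11 CPM in DKO libraries and 11.1 ± 1.46 CPM in controls (-0.09 ± 0.12, adjusted p = 0.673). Haus3 had the smallest acute change, with 6.99, 8.24 and 9.22 CPM in DKO libraries, against 12.3, 5.20, 13.0, 10.3 and 11.2 CPM in controls 1 to 5 (-0.25 ± 0.17, adjusted p = 0.377). Acute control 2 was lower than every DKO library, and without it Haus3 was called (adjusted p = 0.0137).

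At 5 months Haus3 had 9.79, 10.7, 10.7, 10.2 and 10.9 CPM in DKO libraries, against 13.3, 12.4 and 13.5 CPM in controls, with no overlap (log2 fold change -0.29 ± 0.09, adjusted p = 0.0423), and the call was lost without any single library of the 8, by DESeq2 (adjusted p = 0.064) and with no filter on low values (adjusted p = 0.0661). Haus7 had 11.6, 14.8 and 17 CPM (lowest, median and highest) in acute DKO libraries, against 19.7, 15.1, 21.4, 16.2 and 15.7 CPM in acute controls (adjusted p = 0.116). At 5 months it averaged 11.2 ± 1.27 CPM in DKO libraries and 11.8 ± 2.04 CPM in controls, the smallest prolonged difference of the 59 members (-0.06 ± 0.12, adjusted p = 0.807). Haus1 and Haus2 were called at neither time, with acute log2 fold changes of -0.42 ± 0.14 (adjusted p = 0.0687) and -0.28 ± 0.12 (adjusted p = 0.137) and prolonged ones of -0.13 ± 0.14 (adjusted p = 0.576) and -0.08 ± 0.08 (adjusted p = 0.565). Without acute DKO 5 or DKO 6 Haus1 was called at the acute time (adjusted p = 0.0432 and 0.0495). Haus6 and Haus8 were called at the acute time (-0.50 ± 0.12, adjusted p = 0.0117, and -0.41 ± 0.12, adjusted p = 0.0282) and not at the prolonged time (-0.35 ± 0.11, adjusted p = 0.0576, and -0.37 ± 0.12, adjusted p = 0.0731). Haus6 was called at the prolonged time without prolonged control 2 (adjusted p = 0.0291), with relative log expression factors (adjusted p = 0.0488), by edgeR (adjusted p = 0.0498) and by DESeq2 (adjusted p = 0.039). Haus8 was called there without prolonged control 2 (adjusted p = 0.0161) or prolonged DKO 3 (adjusted p = 0.0486) and by DESeq2 (adjusted p = 0.04), and its acute call was lost without any of 5 single libraries (adjusted p up to 0.0828 without acute control 3). Haus4 was called at both times, and lost its call under 5 acute and 8 prolonged alternatives.

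In all, 35 members were called at both times, 13 at the acute and not at the prolonged time, 3 at the prolonged and not at the acute time, and 8 at neither. Of all genes tested, 12.1% were called lower at the acute time and 8.94% at the prolonged time. The share of all genes called at both times was not counted. The difference between times was tested as prolonged minus acute log2 fold change in a joint fit of all 20 libraries. By limma-trend 0 of the 59 members passed (smallest adjusted p = 0.859), as did 0 of the 13088 genes tested (0%), while 8 members and 4.65% of all genes had an unadjusted p under 0.05. edgeR and DESeq2 on the recovered reads also called 0 members. By each tool 3 members had an unadjusted p under 0.05, all with a difference above 0. Of the 13088 genes, 248 had such a p with a difference above 0 and 246 below by edgeR, and 218 and 271 by DESeq2. Over all genes edgeR called 0, and DESeq2 6 with a difference above 0 and 2 below. On unscaled CPM, the estimated difference was above 0 in 58 members, whose reduction was smaller at the prolonged time, and in 70.2% of all genes tested, with medians of 0.23 and 0.08. With TMM factors it was above 0 in 55 members and in 50.5% of all genes, with medians of 0.15 and 0.00. The 8 members with an unadjusted p under 0.05 were those of limma-trend on unscaled CPM. Among them, Cdca3 had a log2 fold change of -0.29 at the prolonged and -0.84 at the acute time, a difference of 0.54 ± 0.21. For Haus5 the values were -0.09 at the prolonged and -0.56 at the acute time (difference 0.47 ± 0.20), and for Ncapd2 -0.34 at the prolonged and -0.75 at the acute time (difference 0.41 ± 0.16). The other 5 were Ccnb2, Melk, Cdc20, Ube2c and Kif22, with differences of 0.30 to 0.39. A missed threshold here does not show that the effects were alike.

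**Figure D3:**
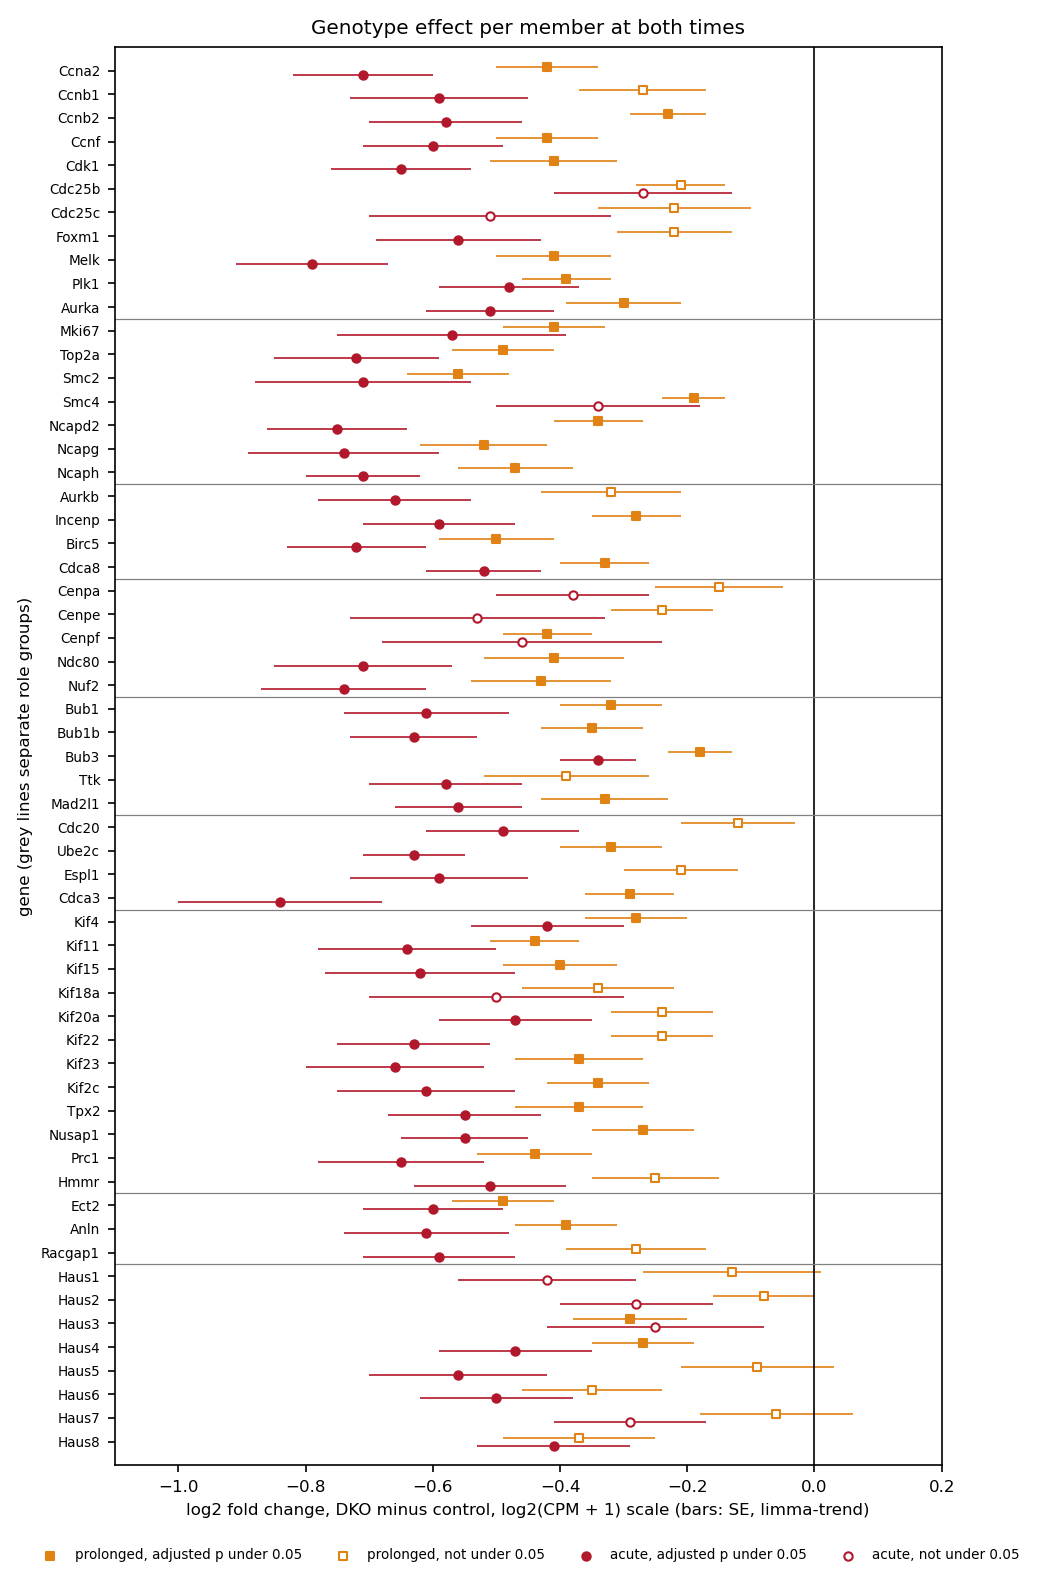
Points are log2 fold changes of the 59 members, as differences of mean log2(CPM + 1), DKO minus control, with SE bars from limma-trend, for the prolonged time (orange squares, upper of each pair) and the acute time (red circles), filled where the adjusted p was under 0.05. On these unscaled CPM all points lie left of 0, from -0.84 to -0.06, and the prolonged point lies right of the acute point in every gene but Haus3.

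Marker lists of other cell states were read against the share of all genes called lower (12.1% acute, 8.94% prolonged) and higher (2.9% acute, 5.74% prolonged). Among 12 markers of crypt base stem cells, 5 were called lower at the acute time (median -0.50) and 2 at the prolonged time (median -0.13), and the list summed to 952 to 2020 CPM in acute DKO libraries and 2150 to 2830 CPM in acute controls, and to 1760 to 2020 CPM in prolonged DKO libraries and 2390 to 2770 CPM in prolonged controls. Olfm4, the stem cell marker with the largest acute change of the 12, averaged 605 ± 195 CPM in acute DKO libraries and 1190 ± 185 CPM in acute controls (log2 fold change -1.04 ± 0.23, adjusted p = 0.00862). It made up a large part of the summed CPM of this list, so the acute sums follow this gene more than the others. Among 8 Paneth cell markers, 7 were called lower at the acute time and 6 at the prolonged time, with sums of 739 to 3950 CPM in acute DKO libraries and 4600 to 9320 CPM in acute controls, and of 1940 to 7320 CPM in prolonged DKO libraries and 7600 to 8380 CPM in prolonged controls. Paneth cells do not divide. Among 15 enterocyte markers, 3 were called higher at the acute time and 1 at the prolonged time. They summed to 42200 to 56100 CPM in acute DKO libraries and 33100 to 49500 CPM in acute controls. The sums were 51800 to 55800 CPM in prolonged DKO libraries and 41300 to 55000 CPM in prolonged controls. At each time a single control overlapped the DKO libraries, acute control 5 at 49500 CPM and prolonged control 2 at 55000 CPM. Every other control summed to less than every DKO library of its time. Prolonged control 2 was also the prolonged control with the lowest member levels, and a link between the enterocyte sums and the member levels was not tested.

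Immune cell markers summed to 419 to 1250 CPM in acute DKO libraries and 469 to 870 CPM in acute controls, and to 409 to 949 CPM in prolonged DKO libraries and 308 to 658 CPM in prolonged controls, with 0 called at either time (0 of 16 acute, 0 of 15 prolonged). Stromal, muscle and endothelial markers summed to 40.8 to 748 CPM in acute DKO libraries and 51.9 to 225 CPM in acute controls, and to 19.7 to 34.9 CPM in prolonged DKO libraries and 19.0 to 21.2 CPM in prolonged controls, with 0 called by limma-trend at either time; Lum was at 0 in all prolonged controls. By limma-trend none of the tested immune and stromal markers had an unadjusted p under 0.05 at the acute time, where edgeR and DESeq2 each gave 1 stromal marker, and 1 immune marker did at the prolonged time. Of both lists, edgeR called 0 at either time, and DESeq2 called 1, the antibody joining chain gene Jchain, higher at the prolonged time. The part of any of these cell types in the member levels was not tested.

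Genes of mitosis outside the 59 were read from the same fits. Of 105 further mitosis genes in both tables, 54 were called lower at the acute time (median -0.43) and 37 at the prolonged time (median -0.24), with 0 higher at either by limma-trend (with an unadjusted p under 0.05 for 1 of them in prolonged and 0 in acute libraries) or edgeR. DESeq2 called 1 higher at the acute time, the cohesin loader gene Mau2. Among the 16 subunits and regulators of the anaphase-promoting complex, 2 were called lower at the acute time (median -0.18) and 1 at the prolonged time (median -0.04). The called gene with the largest acute change there was Fbxo5, an inhibitor of the complex, at 12.8 ± 1.29 CPM in DKO libraries and 22.9 ± 2.71 CPM in controls (-0.79 ± 0.09, adjusted p = 0.000199). Cohesin and its regulators had 5 of 15 called lower at each time, led by Esco2, a cohesin acetyltransferase (-0.75 ± 0.20, adjusted p = 0.0248). Further kinetochore genes had 20 of 33 called lower at the acute time and 11 at the prolonged time, led by Spc25 of the Ndc80 complex, at 9.55 ± 1.52 CPM in DKO libraries and 18.1 ± 2.06 CPM in controls (-0.86 ± 0.11, adjusted p = 0.000342).

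Further spindle, centrosome and cytokinesis genes had 17 of 26 called lower at the acute time and 13 at the prolonged time, led by Spag5, the spindle protein astrin (-0.68 ± 0.13, adjusted p = 0.00419). Genes of entry control and condensin II had 10 of 15 called lower at the acute time and 7 at the prolonged time, led by Ncapg2 of condensin II (-0.72 ± 0.17, adjusted p = 0.0117). For comparison, 35 of 36 DNA replication genes were called lower at the acute time (median -0.65) and 29 at the prolonged time (median -0.47). TTTGAA was present in 11.8% of 34 promoters of these replication genes and in 38.8% of 98 promoters of the further mitosis genes.

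**Figure D4:**
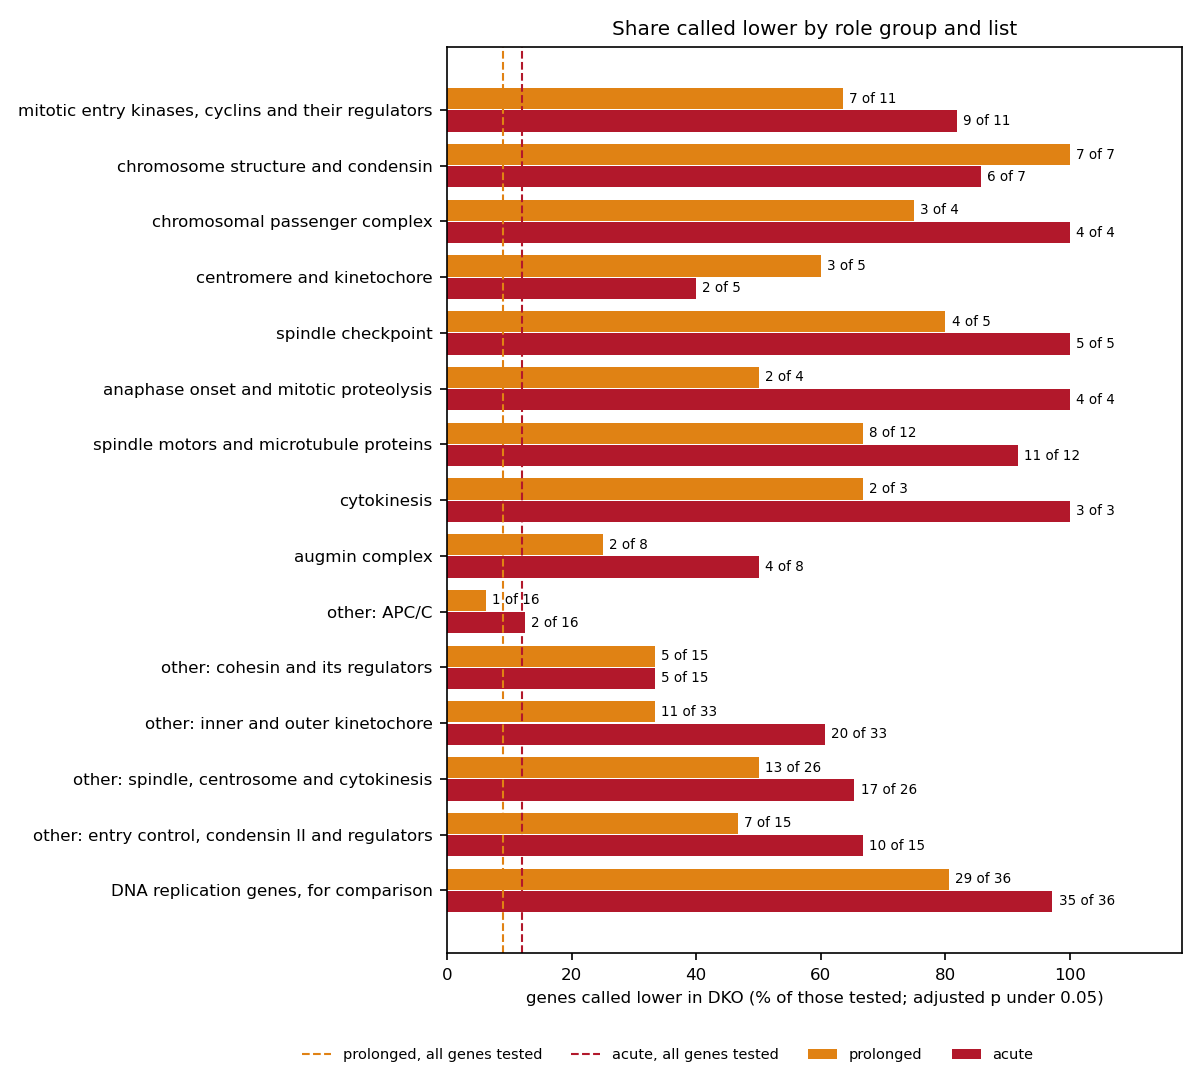
Bars give the share of genes called lower in DKO at an adjusted p under 0.05, in percent of those tested, for each role group, for lists of other mitosis genes and for DNA replication genes, with the prolonged time above the acute time. Dashed lines mark the share over all genes tested, 8.94% at the prolonged and 12.1% at the acute time, and the genes of the anaphase-promoting complex lie near these lines.

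In the authors' deposited table, made with DESeq2, 47 members had an adjusted p under 0.05 and a negative log2 fold change at the acute time (median -0.50, range -0.72 to -0.19), while 8.35% of all genes with an adjusted p did. At 5 months the authors' deposited table had 42 such members (median -0.32, range -0.55 to -0.07), while 9.08% of all genes did. No member was called higher in the authors' deposited table at either time. DESeq2 on the recovered reads gave the same counts of members, 47 and 42, and the same shares of all genes, so the 2 are not separate results.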

How the data were processed

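RNA-seq was measured in 20 libraries of jejunal epithelium, in 4 groups taken from the labels. Per the submitters' processing notes, the tools were featureCounts 1.6.2, STAR, DESeq2, FastQC 0.11.5, bedtools 2.27.1 and SAMtools 1.9, and the build was mm9. The authors deposited CPM per gene symbol, with an equal column total in every library, as 1 table per time. Beside them, per the file headers, stand DESeq2's mean normalised signal, its log2 fold change and SE, and the deposited p-values and adjusted p-values. A further 8 columns were not used. Among the acute gene names, 24 had been turned into dates and 2 occurred more than once, none of them a member. All CPM values were whole multiples of 1 read (100% within 0.01 reads), so reads were recovered; for prolonged control 3 the evidence is weaker, since its step lies near a power of 10. No source used here says whether strand was used in counting, so reads of overlapping, antisense or near-identical genes cannot be told apart.

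Log2(CPM + 1) values were tested with limma-trend (R 4.3.3, limma 3.58.1), for each time alone, on genes with a CPM of at least 0.5 in 5 acute or 3 prolonged libraries (13601 and 13316 genes). The Benjamini-Hochberg adjustment ran over all genes tested. Changes of low genes are understated on this scale. The difference between times was tested in a joint fit on the 13088 genes tested at both. edgeR 4.0.16 and DESeq2 1.42.0 on recovered reads, other scalings, pseudocounts and filters, the replicate block and left-out libraries were alternatives. The limma fits were tested on simulated data, with the same dispersion for every gene and no outlying libraries. A least share of strongly changed genes recovered was required of the fits at each time, and not of the difference between times. Libraries within a group differed beyond sampling noise, so none is a copy of another of its group, and all 20 were counted as separate samples, as labelled. This check cannot tell separate animals from separate preparations of the same animal, and the prolonged labels give no animal number.

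Named members were a fixed set of regulators, the largest and smallest acute change in each role group and every member that missed the threshold at the acute or the prolonged time. Others named in passing were chosen after their values were seen. The members and lists were chosen with earlier results of these data known. Promoters come from RefSeq, build GRCm38.p6, and not from the build of the counts.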

Additional observations from a re-analysis of the deposited data

Results flagged for a closer look

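Of 123 checks, 41 named members in each group of 4 or more libraries, 5 found a library far from the others of its group; chance flags about 1 in 20 such groups. Cdca3 was at 67.4 CPM in acute DKO 6, where the next highest DKO library had 40.9 CPM. Anln was at 36.8 CPM in the same library, where the next highest had 25.2 CPM. In acute control 5, Plk1 was at 63.0 CPM, where the next lowest control had 72.8 CPM, and Ncapd2 at 97.9 CPM, where the next lowest had 112 CPM. Haus1 was at 16.5 CPM in acute control 3, where the next highest control had 11.7 CPM. Without acute DKO 6, 50 members were called at the acute time, without acute control 5, 50, and without acute control 3, 42.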

How the results depend on the processing

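The count of members called lower at the acute time was 48, and 46 to 48 with another pseudocount, no filter, either composition scaling, edgeR or DESeq2. Blocked by runs of animal numbers it was 31. With a library left out it ran from 42 (without acute control 3) to 52 (without acute control 2), and the count over all genes, 2035, from 1237 (without acute control 3) to 2185 (without acute DKO 7). At the prolonged time the count of members was 38, and 37 to 42 under the same settings; with a library left out it ran from 15 (without prolonged control 3) to 48 (without prolonged control 2), and the count over all genes, 1955, from 1052 (without prolonged control 3) to 1724 (without prolonged control 2). The count of members that differed between times was 0 under every alternative run, with leave-one-out counts from 0 to 0. The replicate numbers do not pair the samples: same-numbered libraries correlated at -0.20 to 0.20 at the acute and -0.24 to -0.16 at the prolonged time, and no library correlated best with its own number. With the replicate block, 39 members and 947 genes were called at the acute time and 6 members and 528 genes at the prolonged time. The median of the members was then -0.64 at the acute time and -0.33 at the prolonged time, where the fits without the block gave -0.58 and -0.33. The block adds terms to a fit of few libraries, and prolonged DKO 4 and 5 have no control of the same number. The cause of the lost calls was not tested. Among single named members 0 acute values and 2 prolonged values changed sign, both of Haus7, to 0.05 with the replicate block (adjusted p = 0.888) and 0.06 without prolonged control 1 (adjusted p = 0.802), where its values with a library left out ran from -0.17 to 0.06. Of the other values of named members, 50 acute and 67 prolonged ones lost their call and 13 and 26 gained one, while 798 and 520 kept theirs. The 3 prolonged controls limit the precision at that time. Every member had at least 75 reads in each library, and the part of read depth in the missed calls was not tested.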
